A study of Arabidopsis thaliana with 8 samples.

Results

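The JASMONATE ZIM-DOMAIN (JAZ) repressor genes of Arabidopsis thaliana were followed across 4 groups of total RNA samples. The members are the loci of JAZ1, JAZ2, JAZ3, JAZ5, JAZ6, JAZ7, JAZ8, JAZ9, JAZ10 and JAZ12, taken by locus and not by their levels. They are 10 of 25426 genes with a probe, and their 13 probes were found through the RefSeq transcript that each probe is assigned to. JAZ6, JAZ10 and JAZ12 had 2 probes each. The brightest probe stood for its locus, and 8 of the 10 members were well above background on all 8 arrays.

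All plants were of the wild-type ecotype Columbia-0 (Col-0) with no treatment named in the labels, grown on plates of GM medium at 22 °C with 16 h of light a day after 3 days of cold in the dark. The groups were whole plants at 2 days after germination, the aerial part of plants at 21 days, and, from plants of 21 days, the newer 3 leaves, called young here, and the older 3, called mature, with cotyledons left out. There were 2 biological replicates per group, each on a one-colour array, and the labels do not say how many plants made a sample or when in the day it was taken. The p-values below measure the spread between these samples only. The design compares both ages, and it compares both leaf classes, to ask how transcript levels change over growth.

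JAZ proteins hold back jasmonate responses by binding MYC2 and related bHLH transcription factors and bringing in the adaptor NINJA and the corepressor TOPLESS. When the hormone conjugate jasmonoyl-isoleucine is present, the F-box protein COI1 binds JAZ proteins, which are then degraded, and the MYC factors are released. Many JAZ genes are themselves MYC targets, so the repressors are part of a feedback loop. In leaves and seedlings the pathway is known for responses to wounding and insects, for limiting growth and for its part in senescence.

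The markers went with the labelled tissues. All 5 root markers fell from the 2-day plants to the 21-day aerial part. Their summed linear level (relative to the 75th percentile of the array) was 7.63 to 9.37 there against 206 to 225. Most of that sum was PYK10, with mean log2 levels of 7.72 at 2 days and 3.08 in the aerial part. EXPA7, EXPA18, COBL9 and RHD6 were not well above background in the aerial part. They passed the detection filter only through the 2-day plants, so their falls were fixed by the filter. All 5 leaf photosynthesis markers were higher in the 21-day aerial part, although RBCS1A and CAB3 turned sign under quantile normalization, and all 5 proliferation markers were lower in mature than in young leaves, with sums of 0.373 to 0.433 against 6.78 and CYCB1;1 undetected. Of the senescence markers tested, 2 were higher and 1 lower in mature leaves, and their sum was 4.84 to 5.25 there against 0.663 to 0.680 in young leaves. The mature leaf arrays stood apart in brightness: the 75th percentile of their signal was 490 and 520, against 806 to 1059 on the other 6 arrays, while the median log2 signal of the spike-in probes lay between 8.51 and 8.65 on all arrays. The 2-day and aerial arrays shared slide 1 and scan 1, and both leaf groups shared slide 2 and scan 2. Both comparisons of the design therefore lay within a slide.

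**Figure D1:**
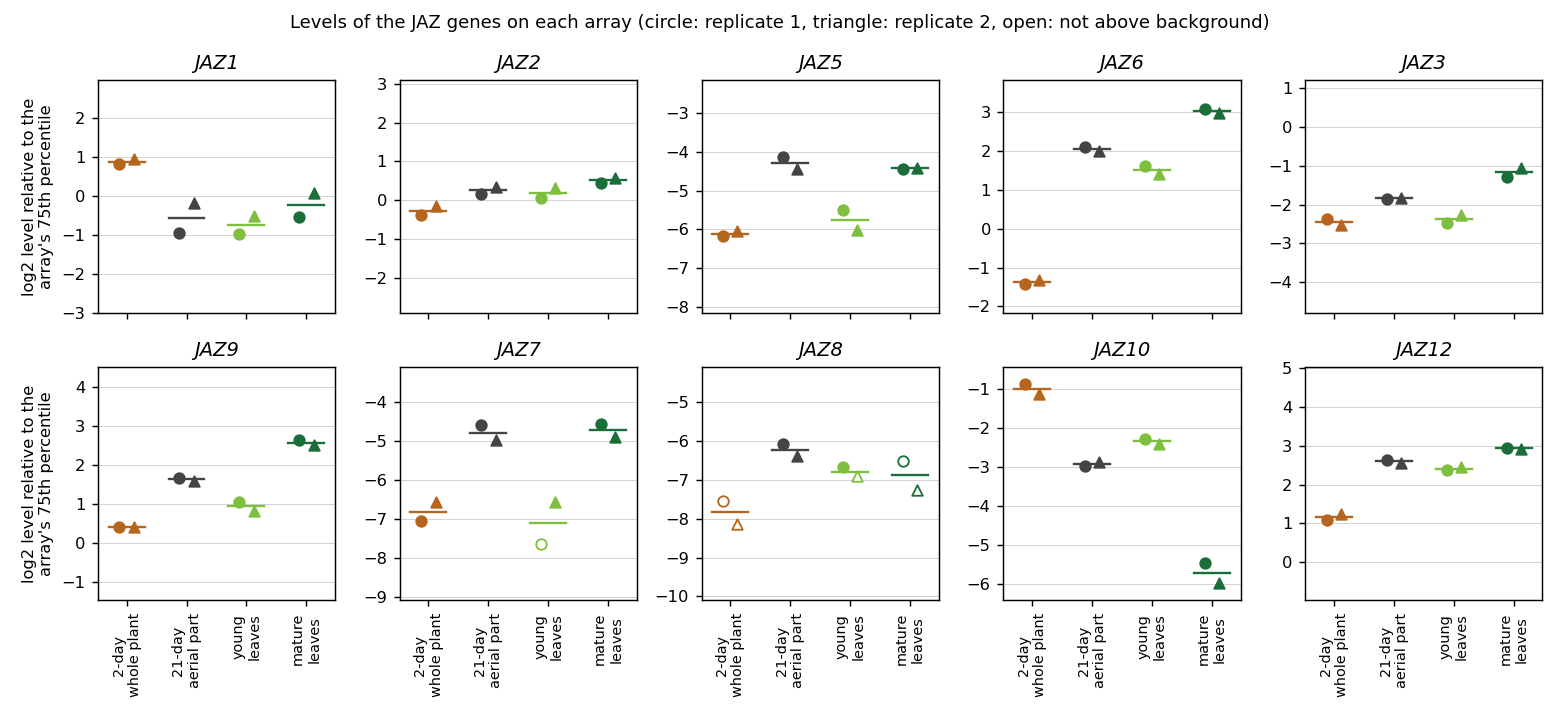
Log2 level of each JAZ gene relative to the 75th percentile of the array (vertical axis, the same span of 6 log2 units in each panel) on the 8 arrays, by group, with a bar at the group mean. By group means JAZ2, JAZ3, JAZ6, JAZ9 and JAZ12 were lowest in 2-day plants and highest in mature leaves, though not every step was called. The top place of JAZ12 turned under spike-in scaling. JAZ10 ran the other way, and the open symbols of JAZ7 and JAZ8 were not well above background.

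The first comparison sets the shoot at 21 days against the whole plant at 2 days. Most JAZ genes were higher at 21 days, led by JAZ6, while JAZ1 and JAZ10 were lower. By limma's moderated test with an adjusted p under 0.05 over 20629 genes, 8 of the 10 members rose and 2 fell, where 34.8% of all genes rose and 40.3% fell. The median log2 difference of the members was 1.33, and that of all genes tested was -0.07. JAZ8 passed the detection filter only through the aerial part, so its rise was fixed by the filter. With only genes well above background on all arrays, 6 members rose and 2 fell of 8 tested. Of all 17135 genes under that filter, 6688 rose and 6186 fell. The 2-day samples had roots and the 21-day samples did not, so age and organ cannot be told apart here. In such bulk samples, fewer cells of a type and less RNA per cell cannot be told apart either.

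JAZ1, JAZ2, JAZ5 and JAZ6 are close relatives. JAZ6 (AT1G72450) gave a processed signal of 397 and 384 units on the 2-day arrays and of 3677 and 3194 on the aerial arrays. The groups lay far apart, and the log2 difference was 3.41 ± 0.10 (SE, n = 2 a group here and below; limma adjusted p = 2.01e-06), a 10.6-fold rise. Its relative JAZ5 (AT1G17380) rose by 1.81 ± 0.20 on the log2 scale from a much dimmer signal, 14.7 and 14.6 units of processed signal at 2 days and 49.2 and 36.7 at 21 days. JAZ2 (AT1G74950), which is needed for the action of the bacterial jasmonate mimic coronatine on stomata, had log2 levels of -0.37 and -0.15, then 0.17 and 0.34. It rose by 0.52 ± 0.13 (adjusted p = 0.0118), and the call is lost under spike-in scaling (0.31, adjusted p = 0.0791), without 2-day replicate 1 (0.41) and without aerial replicate 2 (0.44). JAZ1 (AT1G19180), one of the first JAZ proteins shown to be degraded through COI1, moved against these relatives. Its log2 levels were 0.83 and 0.95 at 2 days and -0.94 and -0.17 in the aerial part, a difference of -1.44 ± 0.33 (adjusted p = 0.00778). Both aerial arrays were below both 2-day arrays, although they lay 0.78 apart.

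JAZ3 and JAZ9 form another branch of the family. JAZ9 (AT1G70700), which also binds a DELLA repressor of gibberellin signalling, had log2 levels of 0.42 and 0.41 at 2 days and 1.68 and 1.58 at 21 days. It rose by 1.22 ± 0.10 (adjusted p = 8.87e-05). JAZ3 (AT3G17860), known from the jasmonate-insensitive mutant jai3, had levels of -2.38 and -2.53, then -1.85 and -1.82. It rose by 0.62 ± 0.11 (adjusted p = 0.00328), a call lost under spike-in scaling (0.41, adjusted p = 0.0609). JAZ12 (AT5G20900), whose protein is a target of the ubiquitin ligase KEG, rose by 1.44 ± 0.08 (adjusted p = 2.02e-05), from 1.09 and 1.23 to 2.63 and 2.56.

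JAZ7 and JAZ8 are small proteins that can bind TOPLESS directly, and JAZ8 lacks the usual degradation signal. Both were dim. JAZ7 (AT2G34600) had log2 levels of -7.06 and -6.57 at 2 days and -4.58 and -4.97 at 21 days, where the lowest levels called well above background were -7.18 to -7.00 on these 4 arrays. It rose by 2.03 ± 0.38 (adjusted p = 0.00331). JAZ8 (AT1G30135) passed the filter only through the aerial part, so its limma adjusted p of 0.00377 is no support for a rise. It was undetected on both 2-day arrays and detected on both aerial arrays, at 12.8 and 9.61 units. It was at least 1.87-fold higher in the aerial part. That bound sets the mean of the brighter group against, on each array of the dimmer group, the higher of the lowest signal called well above background and the signal of the probe itself.

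JAZ10 (AT5G13220) is known for splice forms that lack part of the degradation signal and so persist when the hormone is present. It had log2 levels of -0.88 and -1.12 in the 2-day plants and -2.97 and -2.88 in the aerial part, a difference of -1.93 ± 0.18 (adjusted p = 0.000172). It fell while most other members rose, and the root markers fell in the same comparison. All 5 proliferation markers fell too, with sums of 14 to 15.6 at 2 days and 4.75 to 5.33 in the aerial part. The part of roots and of dividing cells in these differences was not tested.

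**Figure D2:**
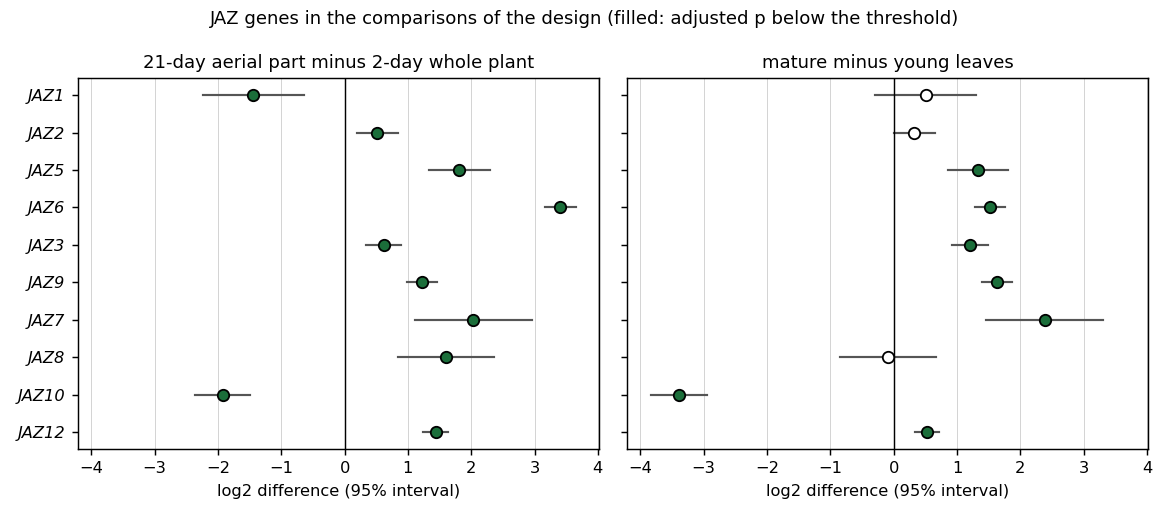
Log2 difference of each JAZ gene (horizontal axis, with the 95% interval of the limma fit, n = 2 arrays a group) in both comparisons of the design; filled points have an adjusted p under 0.05. JAZ6 stands at 3.41 and JAZ10 at -1.93 on the left, and JAZ7 at 2.38 and JAZ10 at -3.39 on the right; the point of JAZ8 on the left is a fitted value against an undetected group.

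The second comparison sets mature against young leaves, both of 21 days. Relative to the 75th percentile of the array, JAZ3, JAZ5, JAZ6, JAZ7, JAZ9 and JAZ12 were higher in mature leaves and JAZ10 was lower. Thus 6 of the 10 members rose and 1 fell, where 35.8% of all genes rose and 35.5% fell. The median log2 difference of the members was 0.86, against 0.04 for all genes tested. These counts depend on the scaling. With the arrays set level on the spike-in probes, 3 members rose (JAZ6, JAZ7 and JAZ9) and 4 fell (JAZ2, JAZ8, JAZ10 and JAZ12). Of all 20629 genes, 1892 rose and 14055 fell under that scaling. The median difference was then -0.005 for the members and -0.83 for all genes. The differences below are relative to the 75th percentile, and directions that turn are named.

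JAZ10 fell. Its log2 levels were -2.28 and -2.41 in young leaves and -5.48 and -5.99 in mature leaves, a difference of -3.39 ± 0.18 (adjusted p = 2.18e-05) or 10.5-fold. In processed signal, 180 and 160 units in young leaves stood against 11.0 and 8.19 in mature leaves, where the gene was just above the lowest signals called well above background there, 5.92 and 5.97 units. With normexp background correction and its offset of 50, which draws dim signals together, the difference was -1.09, still called, and was then smaller in size than the rises of JAZ9 (1.60) and JAZ6 (1.42). Proliferation markers fell with JAZ10 in all 5 members, with a median log2 difference of -4.25, and their part in the result was not tested.

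JAZ6 had log2 levels of 1.61 and 1.40 in young and 3.07 and 2.98 in mature leaves, a rise of 1.52 ± 0.10 (adjusted p = 4.29e-05). JAZ9 rose by 1.64 ± 0.10 (adjusted p = 3.25e-05), from 1.06 and 0.83 to 2.64 and 2.52. Both were also higher in mature leaves in unscaled signal and under spike-in scaling, by 0.65 and 0.77 on the log2 scale. For both genes the 4 values of a comparison fell into 2 separate pairs. The log2 ratio of JAZ6 over JAZ10 on the same array does not depend on a scaling factor per array, although its absolute value compares 2 probes and has no meaning. It does depend on the background correction and on quantile normalization, under which the difference of JAZ10 between mature and young leaves was -1.09 and -2.95. It was 3.89 and 3.81 in young leaves and 8.55 and 8.97 in mature leaves, and in the other comparison -0.54 and -0.20 in 2-day plants and 5.07 and 4.87 in the aerial part. The ratio thus rose in both comparisons. JAZ6 had the largest rise and JAZ10 the largest fall of the first comparison, and they also moved apart in the second. The ratio therefore had to rise in both and is no separate support.

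JAZ3 had log2 levels of -2.48 and -2.28 in young and -1.29 and -1.06 in mature leaves, with a limma adjusted p of 0.000205. JAZ5 rose by 1.33 ± 0.20 (adjusted p = 0.0013), from -5.49 and -6.02 to -4.45 and -4.41. Neither call held under spike-in scaling, where JAZ3 stood at 0.34 (adjusted p = 0.0975) and JAZ5 at 0.46 (adjusted p = 0.105). JAZ7, which limits dark-induced leaf senescence, rose by 2.38 ± 0.38 (adjusted p = 0.0018). Its signal was 4.40 and 8.89 in young leaves, the first of them not well above background, and 20.8 and 17.6 in mature leaves. The rise was 0.97 with normexp correction and 1.51 with spike-in scaling, both called. The tested senescence markers ORE1, a NAC transcription factor, and NYE1, of chlorophyll breakdown, rose in the same comparison, and WRKY53, which was undetected in mature leaves, fell; SAG12 and SAG13 did not pass the detection filter. Their part in the JAZ7 result was not tested.

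JAZ12 had log2 levels of 2.37 and 2.45 in young and 2.95 and 2.92 in mature leaves, a rise of 0.52 ± 0.08 (adjusted p = 0.00141). Its unscaled signal ran the other way, at 4518 and 4617 in young against 3780 and 3929 in mature leaves. Under spike-in scaling the difference was -0.35 (adjusted p = 0.0448), so the direction for JAZ12 rests on the scaling. JAZ2 stood at 0.33 ± 0.13 (adjusted p = 0.064) and was not called. It was called higher with median scaling (0.59, adjusted p = 0.00653), when the fit kept just the probes detected on every array (adjusted p = 0.048), with eBayes set to trend and robust (adjusted p = 0.0428) and without young leaf replicate 2 (0.46, adjusted p = 0.0391). Under spike-in scaling it was called lower, at -0.54. JAZ1 was not called, at 0.51 ± 0.33 (adjusted p = 0.207), with a 95% interval of -0.30 to 1.31, and was at -0.36 under spike-in scaling. JAZ8 was well above background on 1 of the 4 leaf arrays, and its difference of -0.09 ± 0.31 had an interval of -0.84 to 0.66.

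**Figure D3:**
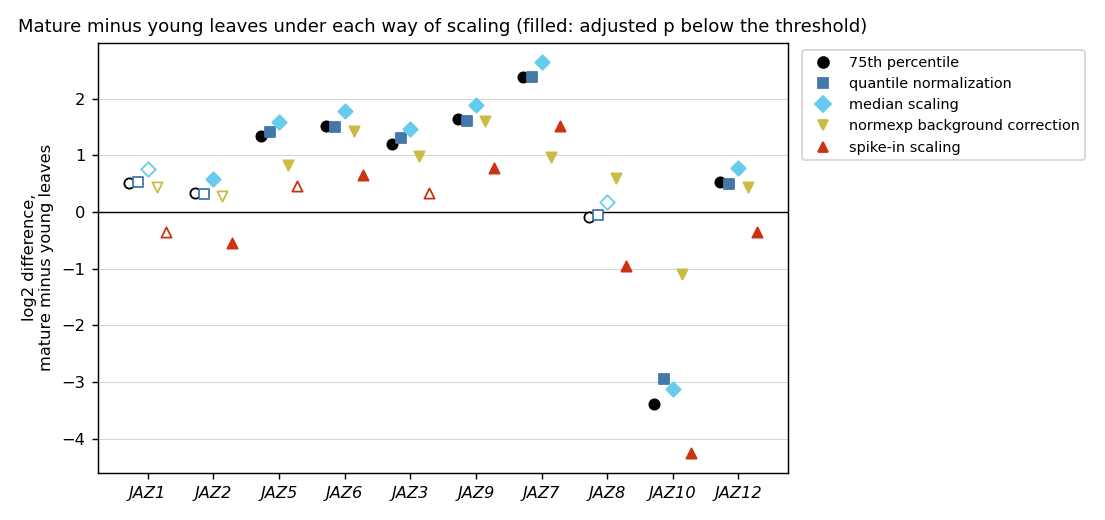
Log2 difference of each JAZ gene between mature and young leaves (vertical axis) under 5 ways of scaling or correcting the arrays; filled symbols have an adjusted p under 0.05. JAZ6, JAZ7 and JAZ9 lie above 0 and JAZ10 below 0 with filled symbols throughout, while JAZ12 goes from 0.52 to -0.35 under spike-in scaling.

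Over all 4 groups, the members fell into several orders. The contrasts between arrays of different slides stand here, and in them the group and the slide with its scan cannot be told apart. Called in either direction were 72.9% of genes between young leaves and 2-day plants, 84% between mature leaves and 2-day plants, 37.6% between young leaves and the aerial part, and 60.3% between mature leaves and the aerial part. Of the 10 members, 7, 10, 6 and 5 were called in the same contrasts. JAZ6 and JAZ9 shared the order mature leaves, aerial part, young leaves, 2-day plants, from high to low, with every neighbour called in the fit on all arrays. Between neighbours JAZ6 differed by 0.98 ± 0.10, 0.54 ± 0.10 and 2.87 ± 0.10, and JAZ9 by 0.95 ± 0.10, 0.69 ± 0.10 and 0.53 ± 0.10 on the log2 scale. Under spike-in scaling the mature leaves and the aerial part were not called apart for either gene (0.22, adjusted p = 0.232, for JAZ6 and 0.19, adjusted p = 0.321, for JAZ9). The step of JAZ6 from the aerial part to young leaves is lost under that scaling (adjusted p = 0.0762) and without aerial replicate 1 (adjusted p = 0.0553).

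JAZ10 ran in the order 2-day plants, young leaves, aerial part, mature leaves, with steps of 1.34 ± 0.18, 0.58 ± 0.18 and 2.81 ± 0.18. The middle step had an adjusted p of 0.0483 and is lost without either young leaf array, without either aerial array, without either 2-day array, with no filter on dim probes and with the value table. JAZ12 was highest in mature leaves, 0.34 ± 0.08 above the aerial part, a step that turned to -0.43 under spike-in scaling and is lost with the value table, without aerial replicate 2 and without mature leaf replicate 1. Its aerial part and young leaves were not called apart, and young leaves were 1.25 ± 0.08 above 2-day plants. JAZ3 was 0.66 ± 0.11 higher in mature leaves than in the aerial part (-0.10 under spike-in scaling), and young leaves and 2-day plants were not called apart. JAZ5 and JAZ7 had the aerial part and mature leaves at the top without a call between them, and young leaves and 2-day plants at the bottom, again without a call. For JAZ7 the aerial part was 2.33 ± 0.38 above young leaves (adjusted p = 0.00603). JAZ1 was highest in 2-day plants, 1.12 ± 0.33 above mature leaves (adjusted p = 0.0184), and the 3 groups of 21 days were not called apart. That step is lost with median scaling, without either 2-day array and without mature leaf replicate 1. JAZ2 was lowest in 2-day plants, with no call among the other 3 groups. Its step of 0.45 ± 0.13 from 2-day plants to young leaves is lost with spike-in scaling, with the value table, without 2-day replicate 1 and without young leaf replicate 2. JAZ8 was called lower in 2-day plants than in each other group. The filter fixed its difference from the aerial part, and the calls against both leaf groups are lost with single arrays left out. JAZ8 was undetected in 2-day plants and in mature leaves, so no order between these holds.

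The 3 members with 2 probes were also fitted by probe, in a fit of all kept probes added after the data were seen. The second probe of JAZ6 rose by 3.41 ± 0.09 and 1.55 ± 0.09 in the first and second comparison. That of JAZ12 rose by 1.42 ± 0.10 and 0.78 ± 0.10. The second JAZ10 probe is assigned to another transcript of the locus and stood at -1.93 ± 0.23 in the first comparison. In young leaves it gave 66.8 and 93.1 units of signal, and it was not well above background on either mature leaf array. The probes of JAZ10 differ in the transcript they are assigned to, and no difference between its splice forms was tested.

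Replicate spread was wide for some members. The median replicate SD was 0.17 for the members and 0.11 for all genes on the log2 scale. JAZ7, JAZ1 and JAZ8 had the widest spread, at 0.45, 0.39 and 0.37, and JAZ12 the narrowest, at 0.06. For JAZ1, which was bright, replicate 2 was above replicate 1 by 0.78 in the aerial part, 0.46 in young leaves and 0.62 in mature leaves, and by 0.12 in 2-day plants. Clock genes showed large differences between the same arrays. The evening gene PRR5 was 1.74, 1.83 and 1.96 higher on replicate 2 of the 3 groups of 21 days and 0.01 higher in 2-day plants. The morning gene LHY was lower by 1.43, 2.19 and 1.41 in the same groups. The whole list of 8 clock genes had a median replicate SD of 0.80, a summed linear level of 5.11 to 5.21 at 2 days and of 10.7 to 24.9 over the arrays of 21 days, and no member at background. In the first comparison 3 of the 8 clock genes rose and 5 were not called, where 34.8% of all genes rose and 40.3% fell. In the second 2 rose and 6 were not called, where 35.8% of all genes rose and 35.5% fell. Under spike-in scaling no clock gene was called in the second. The part of the time of day in the spread of JAZ1 and in both comparisons was not tested. Of all genes, 4483 were higher and 4829 lower on replicate 2 in each of the 3 groups of 21 days.

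**Figure D4:**
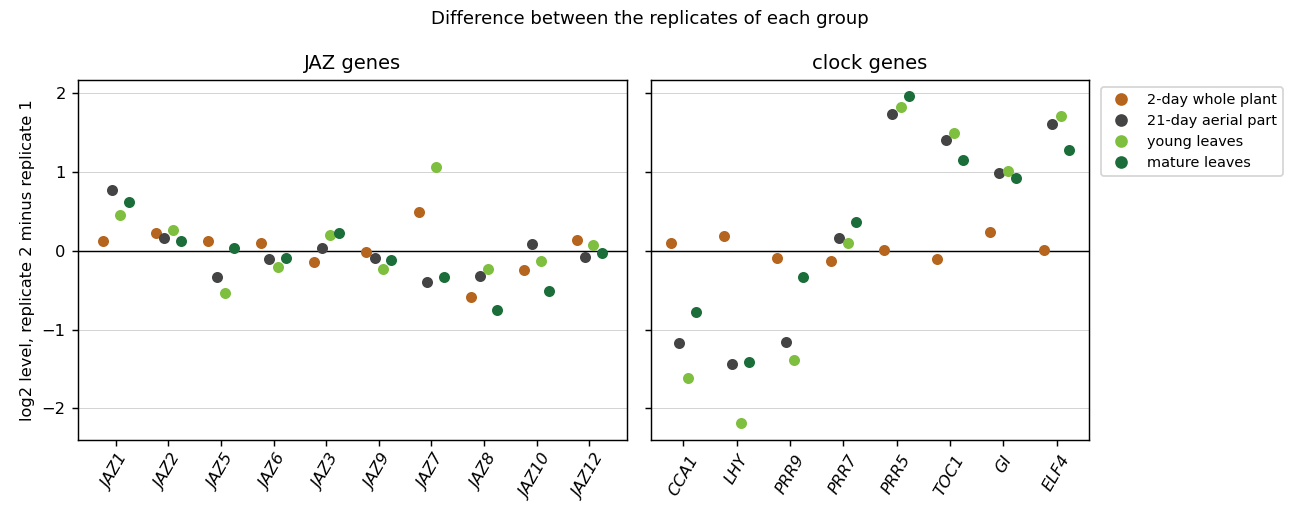
Log2 level on replicate 2 minus replicate 1 (vertical axis) in each of the 4 groups, for the JAZ genes and for 8 clock genes. JAZ1 lies at 0.46 to 0.78 in the 3 groups of 21 days, where PRR5 lies at 1.74 to 1.96 and LHY at -2.19 to -1.41, while the clock genes of 2-day plants lie near 0.

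JAZ genes are known to respond to wounding, and a list of touch and wound genes was set beside them. Of 8 such genes, 4 rose and 2 fell in the aerial part against 2-day plants, where 34.8% of all genes rose and 40.3% fell. In mature against young leaves 3 fell and 5 did not pass, where 35.8% of all genes rose and 35.5% fell. The same shares apply to the lists below. Under spike-in scaling 6 of the 8 touch and wound genes fell in the second comparison and none rose (median -1.07). All 20629 genes then split into 1892 higher and 14055 lower, the rest not called. The summed level of the 8 touch and wound genes was 5.52 to 5.63 in 2-day plants and 5.87 to 7.98 in the aerial part. It was 6.95 to 6.96 in young and 4.72 to 5.66 in mature leaves. RRTF1 was undetected in 2-day plants and young leaves. Their part in the JAZ results was not tested.

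The other genes of the TIFY family share the TIFY motif. Of 9 with a probe, 8 were tested, and AT3G22275, which has no symbol in the reference table, did not pass the detection filter. In the first comparison 4 rose and 2 fell, with a median of 0.14, and in the second 3 rose and 2 fell, with a median of -0.08. JAZ4 (AT1G48500) is the close relative of JAZ3 and JAZ9. It ran against them, at -2.24 ± 0.17 in the aerial part, and was undetected in mature leaves, at least 1.73-fold lower than in young leaves, a direction that turned with normexp correction. JAZ11 (AT3G43440), the relative of JAZ12, stood at 0.28 ± 0.06 and 0.85 ± 0.06. TIFY8 rose by 1.07 ± 0.07 (adjusted p = 4.73e-05) in the aerial part, and in the second comparison it stood at -0.03 ± 0.07, not called. PPD2 and ZIM stood at 0.24 ± 0.06 and 0.18 ± 0.07 in the first comparison and at 0.44 ± 0.06 and 0.46 ± 0.07 in the second, all called, and ZML2 was called lower in both (-0.33 ± 0.07 and -0.21 ± 0.07). PPD1 and ZML1 were called in neither comparison. Under spike-in scaling the difference of ZIM in the first comparison, and those of JAZ11, PPD2 and ZIM in the second, turned to lower. In the second, 7 of the 8 tested genes were called lower under that scaling, with a median of -0.95, beside 14055 of all 20629 genes. ZML2 lost its call in the second comparison under quantile normalization and normexp and turned sign with median scaling.

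Genes of jasmonate synthesis rose in 6 and fell in 4 of 13 members in the first comparison, and rose in 9 and fell in 2 in the second (medians 0.29 and 0.59). LOX2, the leaf lipoxygenase of the first step, rose by 5.29 ± 0.38 in the aerial part, and in mature against young leaves it stood at -1.30 ± 0.38 (adjusted p = 0.0215). The allene oxide synthase gene AOS rose by 1.57 ± 0.07 and 1.96 ± 0.07. AOC1, an allene oxide cyclase gene, rose by 5.44 ± 0.23 in mature leaves. Its relative AOC3 stood at -3.63 ± 0.40 in the aerial part, detected on 1 of 2 arrays. AOC3 passed the filter only through the 2-day plants, so its fall was fixed by the filter. These cyclase genes are near-identical copies in part and may share signal. JAR1, which makes the active conjugate, was called in neither comparison (0.08 ± 0.09 and 0.16 ± 0.09). Under spike-in scaling 3 rose and 6 fell in the second comparison (median -0.28). There 6 of the 11 calls turned sign, and those of LOX2, AOS and AOC1 did not.

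Of 9 receptor and corepressor genes, 4 rose and 2 fell in the first comparison, where 34.8% of all genes rose and 40.3% fell. In the second, 2 rose and 1 fell, where 35.8% of all genes rose and 35.5% fell. The medians of the list were 0.10 and 0.11. In the second, spike-in scaling gave 7 lower and 2 not called (median -0.76), beside 14055 of all 20629 genes lower. Median scaling gave 6 higher and 3 not called (median 0.37), beside 9878 of all genes higher. COI1 rose by 0.34 ± 0.06 and 0.71 ± 0.06. NINJA rose by 0.47 ± 0.08 in the first comparison and stood at 0.11 ± 0.08 in the second, where it was not called. The TOPLESS-related gene TPR4 stood at 0.77 ± 0.11 in the first comparison, TPR3 at -0.21 ± 0.08 there, and TPR1 at -0.36 ± 0.07 in the second. The calls of TPR3 and TPR1 are lost with median scaling. Under spike-in scaling COI1 and NINJA were not called in the first comparison, and COI1 turned to a negative value, not called, in the second.

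Of the 7 bHLH factors bound by JAZ proteins, 5 rose and 2 fell in the first comparison, and 5 rose and 2 did not pass in the second (medians 0.54 and 0.39). MYC2 rose by 0.54 ± 0.09 and 0.73 ± 0.09. NIG1 (AT5G46830) stood at 7.53 ± 0.47 in the first comparison, and it was detected on 1 of 2 arrays of 2-day plants. The largest called rise of the second comparison, with this scaling, was that of MYC4, 0.76 ± 0.22, and JAM2, a repressing relative of MYC2, was lower in the first, at -0.29 ± 0.07. All 5 rises in mature leaves turned to lower under spike-in scaling, where MYC2 and MYC4 were called in neither comparison.

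Jasmonate catabolism was lower in the first comparison in 7 of 9 tested members, and 2 did not pass, with a median of -1.30, or -0.52 with normexp. CYP94B3, ST2A and AT2G38240 passed the filter only through the 2-day plants, so they had to differ there. In the second comparison 3 rose and 1 fell (median 1.03). That median rests in part on background, since CYP94B1 and CYP94B3 were undetected in both leaf groups. ST2A was detected on 1 mature leaf array and on neither young leaf array. With normexp all 9 were called higher, members undetected in leaves among them, beside 10376 of all 20629 genes. With spike-in scaling 2 rose and 3 fell (median 0.16), beside 1892 and 14055 of all genes. CYP94B1, which oxidises the active conjugate, stood at -5.01 ± 0.61 in the aerial part and was undetected in all leaf samples. AT5G05600, which the reference table gives no symbol, rose by 3.73 ± 0.25 in mature leaves. The call of a fall in mature leaves was that of AT2G38240, also without a symbol there, which was detected on 1 of 2 young and on neither of the mature leaf arrays, and its sign turned with normexp.

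Jasmonate outputs rose in 8 and fell in 1 of 9 members in the first comparison, with a median of 5.88, and rose in 4 and fell in 2 in the second, or 4 and 3 under spike-in scaling. No median is given for the second, because the middle value is that of TAT3, undetected on all 4 leaf arrays. CORI3, undetected at 2 days, was at least 490-fold higher in the aerial part, and TAT3, a tyrosine aminotransferase gene, was undetected there and at least 24-fold lower. VSP2, a vegetative storage protein gene induced through MYC2, rose by 5.88 ± 0.17 in the aerial part and stood at -2.30 ± 0.17 in mature leaves. VSP1 stood at -2.47 ± 0.18 there, and PDF1.2, a defensin gene, at 5.17 ± 0.77. CORI3, PDF1.2 and THI2.1 were undetected at 2 days and passed the filter only through a later group. TAT3 passed it only through the 2-day plants, so its fall was fixed by the filter.

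**Figure D5:**
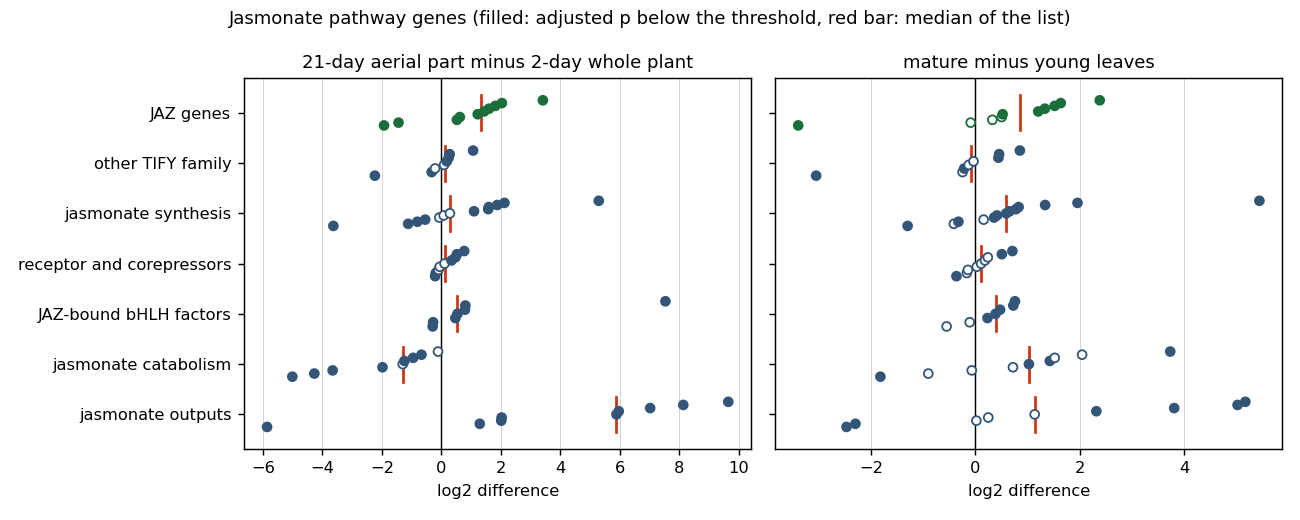
Log2 difference of each tested gene of the JAZ family and of 6 jasmonate lists (horizontal axis) in both comparisons; filled points have an adjusted p under 0.05 and the red bar is the median of the list. Genes undetected in 1 group are drawn at their fitted value, which is no bound; the medians of the JAZ genes are 1.33 and 0.86, and those of the receptor and corepressor genes 0.10 and 0.11.

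Across the 8 arrays, which share their scaling and fall into 4 groups, some members had much the same profile. Pearson's r of the log2 levels was 0.996 for JAZ6 and JAZ12, 0.956 for JAZ3 and JAZ9, and 0.885 for JAZ5 and JAZ7. JAZ10 stood at -0.97 with JAZ9 and at -0.953 with JAZ3, and at 0.376 with JAZ1, the other member that was highest in 2-day plants. High positive values are common on these arrays: an r over 0.95 was reached with JAZ6 by 2169 and with JAZ10 by 1717 of 17113 genes detected on all arrays. Negative values, and values with the other members, were not counted in this way. All these values of r describe 4 group means more than 8 independent points. The genes most like the mean profile of the members, among the same genes, were HB18 (r = 0.995), BGLU7 (0.992), AT2G07815 (0.990), AT1G03620 (0.988) and MLP43 (0.986), and 194 genes had an r over 0.95. The mean profile itself, centred over the arrays, was -0.56 and -0.54 in 2-day plants, 0.39 and 0.37 in the aerial part, -0.25 and -0.18 in young leaves, and 0.42 and 0.34 in mature leaves.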

How the data were processed

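Total RNA, amplified from oligo(dT) into Cy3-labelled cRNA per the labels' protocols, was read on one-colour Agilent arrays with Feature Extraction 10.10.1.1, per the file headers. The deposited scanner files hold intensity in linear units, background-subtracted within an array and not scaled between arrays. They also hold a flag for probes well above background, which is no measured level (unit other, per the file headers). The deposited value table holds intensity too. It equals the processed signal times 1 factor per array, from 2.08 to 4.44, whose basis is not given in the sources used here.

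Signals of repeated spots were averaged without outlier spots and expressed as log2 relative to the 75th percentile of each array. Probes well above background on both arrays of a group were kept, and the brightest stood for its locus, which left 20629 genes. With limma 3.58.1 (R 4.3.3), 1 mean per group was fitted over the 8 arrays (4 residual and 1.90 prior degrees of freedom, 2-sided), with Benjamini-Hochberg adjustment over all genes. Calls have an adjusted p under 0.05. The ± sign gives the SE of this fit, and the number of arrays limits the precision. Figures were drawn with matplotlib. The fit was tested on simulated data with few genes changed and no scaling step, so that test does not bear on the scaling.

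Members and lists were chosen with earlier results of these data known. Named are all members, the other TIFY genes, the largest called rise and fall of each pathway list, COI1, NINJA, MYC2, LOX2, AOS, JAR1 and VSP2, markers where needed, and the 5 genes most like the mean profile. Alternatives covered background correction, scaling, filters, probes, the value table, the arrays fitted, the variance model, the replicate block and each array left out. The background alternative used the median spot signal, since the files hold no mean spot signal. The labels do not say that a replicate number marks a shared batch, so the samples were not taken as paired. No sequences are printed.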

Additional observations from a re-analysis of the deposited data

How the results depend on the processing

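In the first comparison, the counts of members called stayed within 1.5 times of 8 and 2 in all alternatives run, and each of the 10 members kept its direction. In the second, the counts changed with spike-in scaling to 3 higher and 4 lower. Of the values that turned sign between mature and young leaves, JAZ1 was at -0.36, JAZ2 at -0.54 and JAZ12 at -0.35 under spike-in scaling. JAZ8, near background, was at 0.60 with normexp and 0.17 with median scaling, and between -0.46 and 0.29 with single arrays left out. In contrasts across slides, spike-in scaling gave -0.20 for JAZ2 and -0.023 for JAZ8 between mature leaves and 2-day plants, and -0.10 for JAZ3 and -0.43 for JAZ12 between mature leaves and the aerial part. The cause was not tested. The split of all genes in mature against young leaves was 7386 higher and 7319 lower; with normexp it was 10376 to 5922, with scaling on the median 9878 to 5672, and on the spike-in probes 1892 to 14055. The last moved the median of all genes from 0.04 to -0.83. In the first comparison it was 7185 and 8309, and 4819 and 9071 with spike-in scaling. With normexp the dim members rose less in the first comparison: JAZ5 by 0.70 and JAZ7 by 0.71, both still called. JAZ8 stood at 0.42 there, but it passed the filter only through the aerial part, so its call is no support. Without a replicate, the counts in mature leaves were 6 to 7 higher and 1 lower, and the difference of JAZ1 ranged from 0.19 to 0.82.

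With the replicate number as a block, JAZ1 (0.51, adjusted p = 0.0415) and JAZ2 (0.33, adjusted p = 0.0088) were called higher in mature leaves, which made 8 members higher and 1 lower. In the first comparison the block left 8 and 2. Across genes, replicate differences correlated at -0.07 between the groups of the first comparison and at 0.25 between the leaf groups. The aerial part correlated at 0.35 with young and at 0.31 with mature leaves, so the 3 groups of 21 days deviate together by number, a hint from the data. The labels name no shared batch and there are 2 numbers only, so the fit without the block is kept. A slide block could not be fitted, because each slide holds whole groups. Fitting only the 4 arrays compared, which lie on 1 slide, gave the same calls for the members. The value table has no value on all arrays for JAZ7 and JAZ8.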
